A study of Mus musculus with 2 samples.

Results

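The genes described here are Lin28a, Lin28b, Trim71, Hmga1, Hmga2, Myc, Mycn and Mycl, a set of growth regulators that are active in the embryo and in many tumours. They were taken by gene symbol, and all 8 were found among the 45777 genes of the deposited table. RNA-seq covered 1 library of an E14 teratoma, from wild-type (WT) cells, and 1 of an E14-Sox2TA/WT teratoma, called the E14 and the mutant library below. E14 is a mouse embryonic stem cell (ESC) line. The mutant E14-Sox2TA/WT cells are E14 cells in which CRISPR/Cas9 changed threonine 258 of Sox2 to alanine (T258A) on a single allele, while the other allele stayed WT. Mutant cells were grown from individually sorted cells, and the number of clones behind the teratomas is not stated. The study's methods describe culture of E14 cells in serum and leukemia inhibitory factor. Mutant clones were normally kept with added small-molecule inhibitors as well, which were removed before the experiments. This difference in culture goes with the genotype, and their effects cannot be told apart. Both kinds of cell were placed under the skin of BALB/c-nu nude mice in Matrigel, and teratomas were taken after 14 days. Nude mice lack T cells but keep other host cells such as macrophages and vessels, whose reads are mouse reads as well and are not separated here. The sample labels give the tissue as teratoma, although their protocol text speaks of RNA from an ESC line. With 1 library per group, nothing below has a replicate check and no test was possible.

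Lin28a and Lin28b are RNA-binding proteins that block the maturation of let-7, a family of microRNAs that accumulates as cells differentiate. Let-7 in turn represses the mRNAs of Lin28a, Lin28b, Trim71 and Hmga2, and these genes are typically higher in embryonic than in adult tissue. Trim71 is an RNA-binding protein of the TRIM-NHL family, and the Hmga proteins bind AT-rich DNA through AT-hooks. Myc, Mycn and Mycl are basic helix-loop-helix transcription factors that pair with Max and drive growth genes, with Mycn common in neural and other progenitors and Mycl in parts of the developing nervous system.

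The mature let-7 sequences show what the mRNAs are read by. In RefSeq, 9 of the 10 mouse let-7 forms and miR-98 share the seed GAGGUAG, which is bases 2 to 8 and is in capitals below, whereas let-7j differs in its last seed base. Let-7a, let-7g and miR-98 are shown because they differ outside the seed, and let-7j because it differs within it.
let-7a-5p: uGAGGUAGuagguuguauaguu
let-7g-5p: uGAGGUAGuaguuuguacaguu
miR-98-5p: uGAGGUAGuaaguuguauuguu
let-7j: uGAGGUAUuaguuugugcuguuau

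The longest annotated 3′ UTR of each gene (GENCODE M21, GRCm38, sense strand) was searched for CTACCTC, which pairs with that seed, and for CTACCTCA, which contains it and adds an A opposite the first base of let-7. At least 1 match of 7 bases was present in 5 of the 8 genes, against 9.02% of 20989 protein-coding genes with a 3′ UTR. The 8-base match was present in 4 of the 8, against 3.06% of those genes. The 3′ UTRs of the 8 genes were longer, with a median of 2372.5 nt against 961 nt. They held 0.740 matches of 7 bases per 1000 nt, against 0.0699 over all 20989 genes. Since the set includes known let-7 targets (Lin28a, Lin28b, Trim71 and Hmga2), such an excess follows from the choice of genes. Lin28b, Trim71 and Hmga2 held 4 matches of 7 bases each, a number reached by 12 of the 20989 genes. Lin28a held 2 and Hmga1 held 1. The 3 Myc genes held no match in these windows, and their 3′ UTRs were of 466 nt (Myc), 913 nt (Mycn) and 1970 nt (Mycl). Shorter and other kinds of seed match were not searched for, so let-7 sites in the Myc genes are not excluded. The 8-base matches and the match of Hmga1 are printed with the bases that pair with the seed in capitals, 5′ to 3′ along the mRNA.
Lin28a, minus strand, chr4:134005189-134005210: cacagcctgttgaaCTACCTCa
Lin28a, minus strand, chr4:134004551-134004572: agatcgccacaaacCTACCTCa
Lin28b, minus strand, chr10:45381022-45381043: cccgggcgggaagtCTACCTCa
Trim71, minus strand, chr9:114512472-114512493: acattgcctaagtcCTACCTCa
Trim71, minus strand, chr9:114512376-114512397: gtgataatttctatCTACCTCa
Trim71, minus strand, chr9:114509047-114509068: ttagtatggattttCTACCTCa
Trim71, minus strand, chr9:114509021-114509042: tggcaaaaagttgtCTACCTCa
Hmga2, minus strand, chr10:120364224-120364245: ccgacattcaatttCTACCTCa
Hmga1, plus strand, chr17:27563278-27563299: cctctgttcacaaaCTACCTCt
The first matches of Lin28b and Hmga2 lie 36 nt and 58 nt after the stop codon. The last pair of Trim71 lies beyond the end of the gene in RefSeq, which stops at 114511268, but within the GENCODE transcript. These are matches of letters, and binding by let-7 was not measured.

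**Figure D1:**
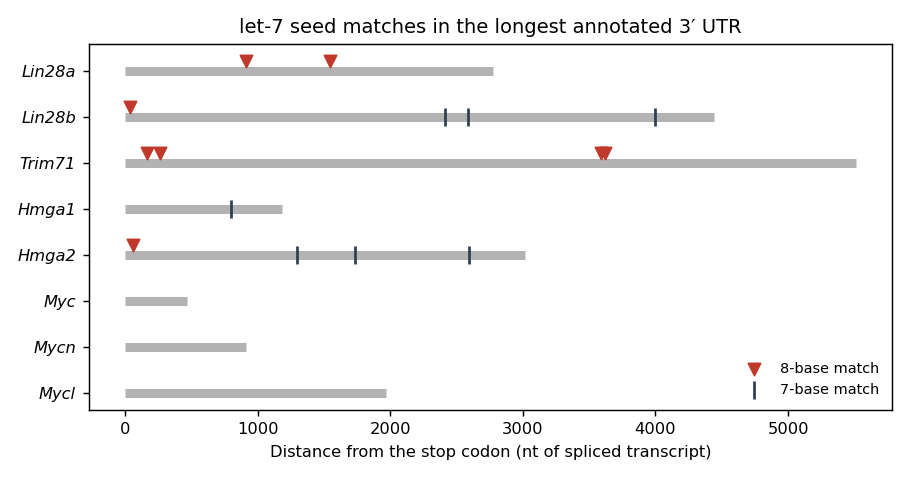
Map of let-7 seed matches along the longest annotated 3′ UTR of each gene, with the distance from the stop codon in nt on the x axis. Grey bars are the 3′ UTRs, red triangles are 8-base matches and dark ticks are 7-base matches. Trim71 carries 4 triangles, and the 3 Myc genes carry no mark of either kind. Other kinds of seed match were not searched for.

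Levels are given as TPM, which scales reads by transcript length and then to a fixed sum per library, so that levels of different genes can be compared. In the E14 library the order of levels was Hmga1 (TPM of 128), Mycl (94.1), Mycn (41.2), Myc (18.7), Hmga2 (18.6), Lin28a (13.2), Lin28b (6.74) and Trim71 (1.91). Myc and Hmga2 could not be ordered there, since their 95% Poisson intervals were 17.6 to 19.9 and 17.7 to 19.5. In the mutant library the order was Hmga1 (243), Lin28a (81.5), Hmga2 (59.8), Mycn (53.7), Mycl (35.4), Myc (21.1), Lin28b (10.1) and Trim71 (4.74). Lin28a thus moved from the sixth place to the second, and Mycl from the second to the fifth. Unless stated otherwise, intervals here and below cover counting error only, from 50529171 (E14) and 49030281 (mutant) reads counted on genes. They compare these libraries, not the genotypes.

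**Figure D2:**
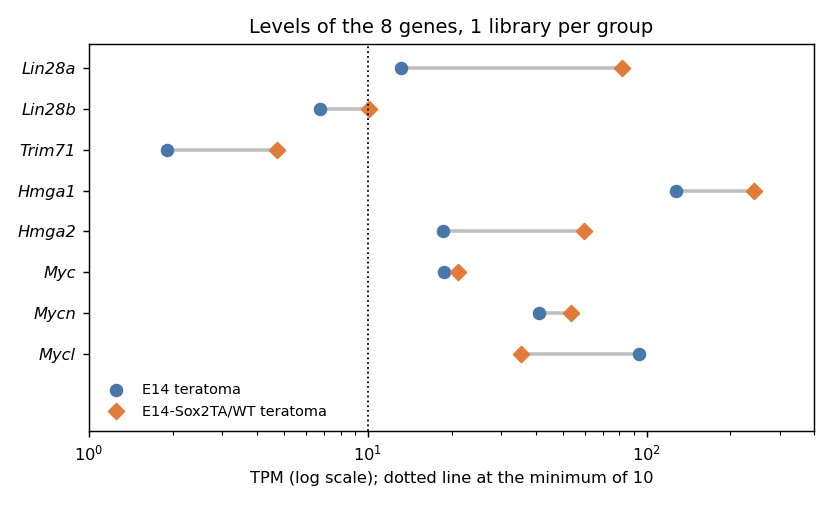
TPM of each gene on a log axis in the E14 (blue circles) and mutant E14-Sox2TA/WT (orange diamonds) libraries, 1 library per group, with a dotted line at the TPM minimum of 10. Lin28a spans 13.2 to 81.5, and Mycl is the gene that lies lower in the mutant library.

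Following the rule of the study's methods, a gene was called where its TPM ratio exceeded 2 and its TPM reached 10 in at least 1 library. The calls were made here from the deposited values and are not the gene lists of the study. Lin28a and Hmga2 were called higher in the mutant library, 2 of the 8 genes, and 10.8% of the 11578 genes that reached that TPM were called higher. Mycl was called lower, 1 of the 8 genes, against 18.7% of the 11578. With the ratio of FPKM, 13.7% of the 11578 were called higher and 14.3% lower. Counts of called genes in the lists below are to be read beside these shares. Trim71 did not reach a TPM of 10 and could not be called. Log2 ratios (mutant over E14) were computed after adding 1 to each TPM, and were above 0 for 7 of the 8 genes. Their median was 0.72, between a lowest value of -1.38 and a highest of 2.54. Over all 11578 genes the median was -0.18, and it was 0.01 on FPKM, which is scaled by library size instead of to a fixed sum. Every ratio of TPM was therefore 0.871 times the ratio of FPKM.

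**Figure D3:**
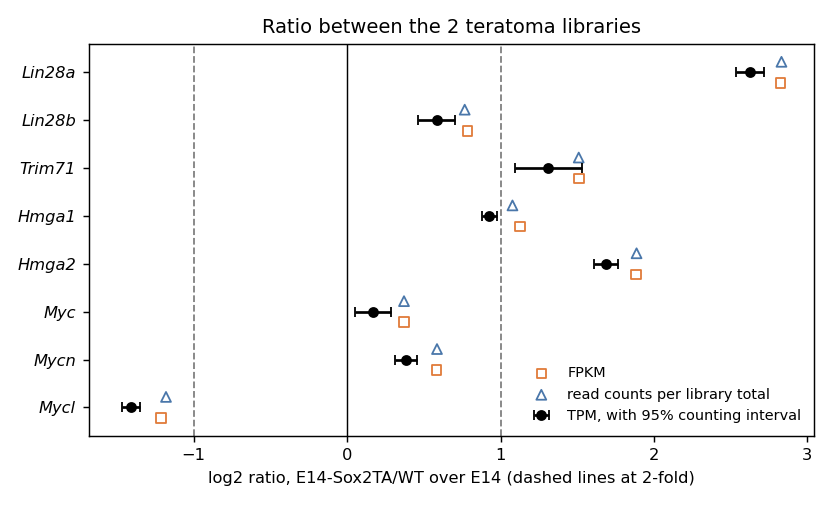
Log2 ratio of each gene between the E14-Sox2TA/WT and E14 teratoma libraries, from TPM with its 95% counting interval (black), FPKM (orange squares) and read counts divided by library totals (blue triangles). Dashed lines mark a 2-fold difference. Lin28a, Trim71 and Hmga2 lie beyond it to the right and Mycl to the left on all 3 scales, although Trim71 is below the TPM minimum. Hmga1 lies beyond it on FPKM and read counts but not on TPM. Nothing was added to the values before these ratios were taken, unlike the log2 ratios in the text.

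Lin28a lies on chromosome 4 of GRCm38 from 134003330 to 134019196. It had 1107 E14 reads and 7640 mutant reads, and its TPM was 6.17-fold higher in the mutant library (95% Clopper-Pearson interval 5.80 to 6.58). Of the 11578 genes, 2.77% had a ratio at least as high. Lin28b, on chromosome 10 from 45376617 to 45486314, had 896 and 1479 reads and was 1.4996-fold higher (1.38 to 1.63), so it did not reach 2-fold on any scale. Lin28a was 1.96 times as abundant as Lin28b in the E14 library and 8.06 times in the mutant library. Its share of the summed TPM of the pair was 66.2% and 89.0%, and its share of their reads was 55.3% (53.1 to 57.5) and 83.8% (83.0 to 84.5). The summed TPM of the pair was 19.9 and 91.6. Lin28a is an ESC gene as well, and all 13 markers of pluripotent cells were called higher in the same library, with TPM ratios from 3.10 to 39.4 and a median of 15.5. Their summed TPM was 94.5 and 2045. In bulk tissue, more cells of a type and more RNA per cell cannot be told apart, and the part of pluripotent cells in the ratio of Lin28a was not tested.

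Trim71, on chromosome 9 from 114511268 to 114564369, had 240 E14 reads and 663 mutant reads. Its TPM was 2.48-fold higher in the mutant library (2.14 to 2.89), at levels below the minimum of the rule. Long transcripts tended to be lower in the mutant library. The median log2 ratio was 0.02 for 3066 genes with transcripts under 2000 nt and -0.62 for 1277 genes with transcripts of at least 6000 nt. It was -0.38 for 2069 genes with transcripts from 4000 to 6000 nt. The GENCODE transcript of Trim71 has 9332 nt, but the gene in RefSeq ends within its 3′ UTR. The length behind the deposited values is not given and was not worked out from them, so Trim71 was not placed in a length class. Its log2 ratio was 0.98. The list of Trim71 relatives and of mRNAs that Trim71 is known to repress held 8 genes. Of these, 5 were called lower and 1 higher, against 18.7% and 10.8% of the 11578 genes. Those called lower were the relatives Trim2, Trim3 and Trim32 and the target mRNAs Rbl2 and Egr1, of which Trim3 and Egr1 were chosen after their values were seen. Trim3 was 2.07-fold lower in TPM but 1.80-fold lower in FPKM, which leaves 4 genes called lower on that scale. Rbl2, a pocket protein of the retinoblastoma family, had a TPM of 27.0 and 7.62, and Trim2, a TRIM-NHL relative, had 37.8 and 12.4. Cdkn1a, a cyclin-dependent kinase inhibitor that is also a target of p53, was the gene called higher, at 52.9 and 134. The target mRNAs Rbl1 (13.3 and 12.3) and Mbnl1 (10.3 and 17.5), named after their values were seen, were not called.

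Hmga2 lies on chromosome 10 from 120361268 to 120476469. It had 1668 E14 reads and 5983 mutant reads, and its TPM was 3.21-fold higher in the mutant library (3.04 to 3.40). Of the 11578 genes, 5.23% had a ratio at least as high. Hmga1, on chromosome 17 from 27556574 to 27563672, was the most abundant of the 8 genes in both libraries, with 5390 and 11039 reads. Its TPM was 1.90-fold higher in the mutant library (1.84 to 1.97), short of the rule, whereas its FPKM was 2.18-fold and its read count per library total 2.11-fold higher. Its value is uncertain, since 86.0% of its stretches of 50 nt are found in Hmga1b too, a gene on chromosome 11 that is annotated with 1 exon. Reads of Hmga1 and Hmga1b could be split between their rows by the counting. Hmga1b had 4733 and 11698 reads and was 2.21-fold higher in TPM. The sum of both rows was a TPM of 253 and 521, or 2.06-fold higher, past the rule. Hmga1 was 6.88 times as abundant as Hmga2 in the E14 library and 4.07 times in the mutant library. Hmga2 shared 0.877% of its stretches with another gene, and the other 6 genes shared none.

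Among 7 other high mobility group genes and the Cdkn2a and Cdkn2b genes, 2 of 9 were called higher and 0 lower. The called genes were Cdkn2a, with a TPM of 3.79 and 33.3, and Cdkn2b, with 3.62 and 16.6. Both encode inhibitors of cell cycle progression, and Hmga2 is known to keep Cdkn2a low in some stem cells. Here Hmga2, Cdkn2a and Cdkn2b were all called higher in the mutant library, and a relation between them was not tested. Hmgn1 and Hmgn2, nucleosome-binding proteins and the most abundant of the list by the mean of both libraries, had a TPM of 560 and 916 and of 343 and 336.

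Mycl lies on chromosome 4 from 122995588 to 123002490. It had 7840 E14 reads and 3358 mutant reads, and its TPM was 2.66-fold lower in the mutant library (2.55 to 2.77). Mycn, on chromosome 12 from 12936093 to 12941836, had 2574 and 3749 reads and a TPM 1.30-fold higher (1.24 to 1.37). Myc, on chromosome 15 from 61985341 to 61990361, had 1083 and 1359 reads and a TPM 1.13-fold higher (1.04 to 1.22). Mycn and Myc were thus within 2-fold on every scale. Of the summed TPM of the 3 genes, Mycl made up 61.1% in E14 and 32.1% in the mutant library, and by reads 68.2% (67.3 to 69.0) and 39.7% (38.6 to 40.7). Mycn made up 26.7% and 48.8% of the TPM, and Myc 12.2% and 19.1%. The most abundant Myc gene was Mycl in the first library and Mycn in the second. The summed TPM was 154 and 110, so the family as a whole was 1.40-fold lower in the mutant library, with Mycl the only gene of the family that was lower. The ratio of the sums, mutant over E14, was 0.716 on TPM, 0.821 on FPKM and 0.759 on read counts per library total. Markers of neurons were lower there too, with 8 of 8 called and a summed TPM of 3025 and 472, as were 4 of 6 markers of neural progenitors, with a summed TPM of 2715 and 787. Their part in the ratio of Mycl was not tested.

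**Figure D4:**
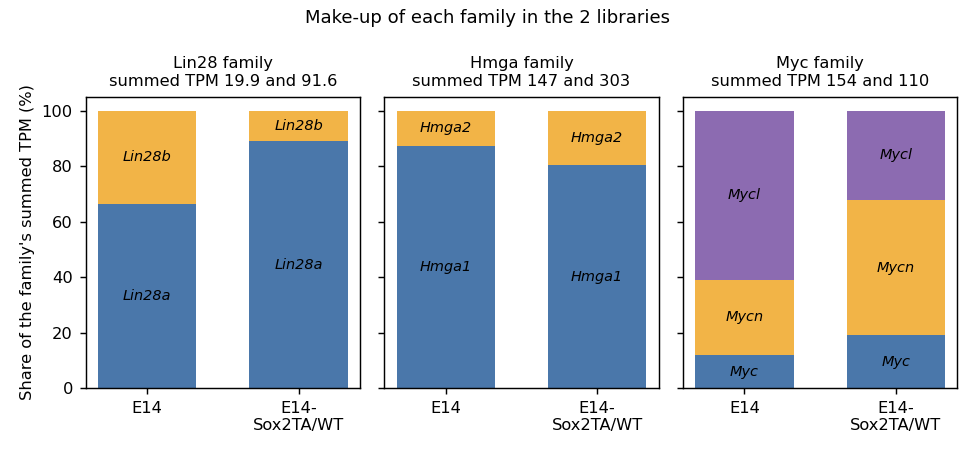
Share of each gene in the summed TPM of its family, in percent, in the E14 and E14-Sox2TA/WT teratoma libraries, with the summed TPM above each panel. Lin28a goes from 66.2% to 89.0% of its family, and Mycn takes the place of Mycl as the leading Myc gene. The Hmga panel leaves out Hmga1b.

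Chromosome 15, which holds Myc, stood 0.46 (0.37 to 0.54) above the median log2 ratio of all genes, taken over its 475 genes that reached a TPM of 10. This interval comes from the ranked ratios of those genes, takes the genes as independent and is not one of counting error. On that relative scale Myc itself stood at 0.34, below the median of its chromosome. Pvt1, a noncoding gene next to Myc that was chosen after its values were seen, had 201 and 726 reads and a TPM of 2.83 and 9.22. The chromosomes of the other members had medians from -0.07 to 0.10, and the source of the shift of chromosome 15 was not tested. Bmyc, a further Myc relative chosen after its values were seen, had a TPM of 59.6 and 31.5.

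The partners of Lin28 and the enzymes that make and load let-7 were described by a list of 17 genes. Of these, 4 were called lower and 1 higher in the mutant library, against 18.7% and 10.8% of the 11578 genes. The median log2 ratio was -0.45, against -0.06 over all 18558 genes that reached a TPM of 1. For the 15 genes that reached a TPM of 10 it was also -0.45, against -0.18 over all 11578 such genes. Transcripts of 4000 to 6000 nt had a median of -0.38 in general, and those of at least 6000 nt -0.62. The transcript lengths of the list were not taken into account. Dis3l2, the exonuclease that degrades let-7 precursors tailed after Lin28 binding, had a TPM of 37.4 and 10.3, 3.61-fold lower. The uridylyl transferases that add these tails, Tut4 and Tut7, had 34.4 and 24.3 and 29.1 and 17.8, within 2-fold. Ago1 and Ago2, which load microRNAs, were called lower, at 60.7 and 30.3 and at 18.9 and 8.88. The fourth gene called lower was Tnrc6c, a partner of the Argonaute proteins, at 23.6 and 10.8. With the ratio of FPKM, Ago1 was 1.75-fold, Ago2 1.85-fold and Tnrc6c 1.90-fold lower. Of the 4 genes, Dis3l2 alone was called lower on that scale, where 14.3% of the 11578 genes were called lower. Tarbp2, a partner of Dicer, was the gene called higher, at 45.8 and 106. Drosha, which cuts primary microRNAs, had 70.7 and 78.4. Tut4, Tut7, Ago1, Ago2 and Tnrc6c were chosen after their values were seen. Mature let-7 was not measured, since the libraries are of polyadenylated RNA. The 11 rows of let-7 precursor genes held 10 reads in each library, with at most 3 in any row.

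Among 20 other genes known as let-7 targets, 4 were called higher and 1 lower, with a median log2 ratio of -0.06. The sign of this median depended on the scale, since it was 0.14 on FPKM, where the median over all 18558 genes was 0.11, and 0.18 on read counts per library total. Nr6a1, a nuclear receptor of the early embryo, had a TPM of 5.34 and 24.4. Igf2bp1, an oncofetal RNA-binding protein that stabilises growth mRNAs, had 20.7 and 53.0. The other genes called were Arid3a (5.20 and 10.6) and Arid3b (11.1 and 27.6), which were higher, and the growth factor receptor Igf1r (27.3 and 12.8), which was lower, all named after their values were seen. Igf1r was 2.14-fold lower in TPM and 1.86-fold lower in FPKM, so that 0 of the 20 were called lower on FPKM. The cyclins Ccnd1 and Ccnd2 had 126 and 92.6 and 109 and 80.8. In a list of 8 oncofetal genes, which shares the 3 Igf2bp genes with the former, 2 were called higher and 1 lower. Sall4, a zinc finger factor of ESCs and germ cells, had 6.80 and 41.2. Dlk1, a secreted and membrane-bound regulator of growth, had 249 and 23.8, 10.5-fold lower. Gpc3, a glypican, had 295 and 371.

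Genes with and without let-7 matches were compared over the whole table, without the 8 members and among genes that reached a TPM of 10. The 372 genes with an 8-base match had a median log2 ratio of -0.25, with 9.68% called higher and 23.7% called lower. The 126 genes with 2 or more 7-base matches had a median of -0.33, with 10.3% called higher and 23.8% called lower. The 9576 genes without a 7-base match had a median of -0.21, with 9.50% called higher and 18.8% called lower. Since 3′ UTRs with a match are longer, the same was computed within 3′ UTRs of 1000 to 3000 nt, and the order of the medians was then the other way round. There, the 174 genes with an 8-base match had a median of -0.25, with 9.77% called higher and 24.7% called lower. The 45 genes with 2 or more matches had a median of -0.24, with 13.3% (6 genes) called higher and 22.2% called lower, and the 3715 genes without a match had a median of -0.29, with 7.19% called higher and 21.99% called lower. These groups were not tested against each other, and no direction is read from them. Of the 12 genes with at least 4 matches, 9 were not members. Among these 9, Nr6a1, Igf2bp1 and Trim6 were called higher and Mcf2l and Zbtb37 lower. Trim6, a ubiquitin ligase known from ESCs, had 129 and 2572 reads and a TPM of 1.83 and 25.4, and Mcf2l had a TPM of 37.7 and 11.0.

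Of 20 partners and cofactors of the Myc proteins, 0 were called higher and 2 lower, with a median log2 ratio of -0.32. Mxd4 and Mnt, both repressors that compete with Myc for Max, were the genes called lower, at a TPM of 62.8 and 24.8 and of 19.9 and 9.93. Mnt passed by little, at 2.01-fold in TPM, and was 1.75-fold lower in FPKM, short of 2-fold. Max itself had 65.5 and 78.0. The helicases Ruvbl1 and Ruvbl2 had 100 and 112 and 148 and 143. Of 7 genes that set the stability or activity of Myc, Pim1, a kinase, was called higher at 14.03 and 36.2, and Gsk3b, which marks Myc for degradation, was called lower at 49.3 and 24.2. Gsk3b was 2.04-fold lower in TPM and 1.78-fold lower in FPKM, so that its call ended on FPKM.

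Ribosome biogenesis and growth genes known as Myc targets were mostly above their E14 level, and how many passed 2-fold depended on the scale. Of 29 genes, 3 were called higher and 0 lower, against 10.8% and 18.7% of the 11578 genes. The log2 ratio was above 0 for 27 of 29, with a median of 0.41. It was above 0 for 8819 of all 18558 genes that reached a TPM of 1. Long transcripts tended to be lower in general, and the transcript lengths of this list were not taken into account. Npm1, a nucleolar chaperone, had a TPM of 866 and 2482 and was 2.87-fold higher. Nop58, a core protein of small nucleolar particles, was 2.21-fold higher at 95.6 and 211, and Gnl3, a nucleolar GTPase chosen after its values were seen, was the other gene called higher at 64.2 and 139. With the ratio of FPKM, 6 of 29 were called higher, against 13.7% of the 11578 genes. Dkc1 (2.12-fold), Wdr12 (2.22-fold) and Ppan (2.04-fold), named after their values were seen, passed there as well. Ldha, which makes lactate, had 1130 and 1237. Markers of cycling cells, described by 13 genes, gave 1 called higher, Bub1, and 1 called lower, Mki67, with a median of 0.47 and a summed TPM of 1221 and 1510. On FPKM, 3 of the 13 were called higher, with Ccnb1 and Tyms besides Bub1.

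**Figure D5:**
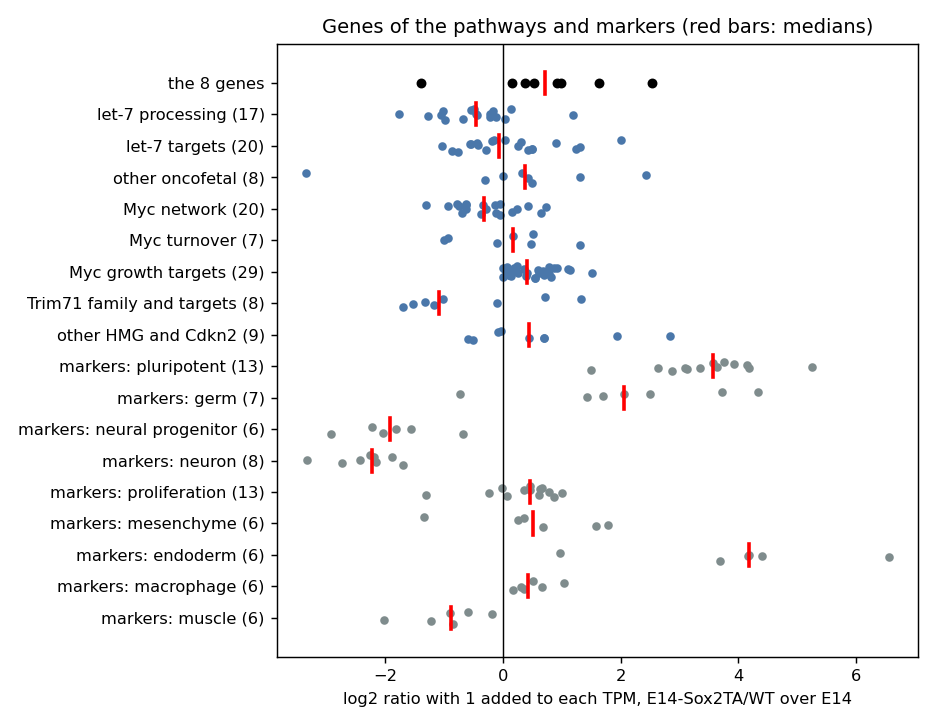
Log2 ratio between the mutant and E14 libraries, after adding 1 to each TPM, for the 8 genes (black), pathway lists (blue) and cell type markers (grey), with the number of genes per list in brackets. Each point is a gene and red bars are medians, which go from -2.22 for neurons to 4.18 for endoderm. The 8 genes spread from -1.38 to 2.54, and the Myc growth targets from -0.001 (Pdcd11) to 1.52 (Npm1), with a median of 0.41.

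The other marker lists show how the tissues of the libraries differed. Of 6 visceral endoderm and liver markers, 5 were called higher in the mutant library, with a summed TPM of 8.18 and 333, and Apoa4 had 0 reads in the E14 library. Germ cell markers gave 3 of 7 called higher, with a summed TPM of 19.1 and 119. Fibroblast and cartilage markers gave 2 higher and 1 lower of 6, with a summed TPM of 245 and 519. The sum rose mainly with Col1a1 (49.9 and 152) and Col1a2 (71.6 and 249), the genes called higher. Sox9 was called lower (44.1 and 16.9). Col2a1 (58.0 and 74.8), Acan (0.25 and 1.01) and Pdgfra (21.6 and 26.1) were not called. These 3 and Sox9 were named after their values were seen. Skeletal muscle markers gave 2 of 6 called lower, with a summed TPM of 136 and 70.3. Macrophage markers, which stand for host cells, gave 1 of 6 called higher, with a summed TPM of 798 and 1414. Sox2 itself had a TPM of 246 and 130, and its alleles are not separated. How much of the differences in the 8 genes goes with these cell types was not tested.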

How the data were processed

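RNA-seq of 1 E14 and 1 E14-Sox2TA/WT teratoma was analysed. For each NCBI gene identifier on mm10, the authors deposited raw read counts, FPKM and TPM. Notes from the submitters name bcl2fastq 2.20.0, Trimmomatic, HISAT2 2.1.0 and StringTie 2.1.3b. Whether counting used strand is not given in the sources used here. Positions came from RefSeq on GRCm38, the same build, which matched 45675 of 45777 identifiers.

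Calls used a TPM ratio above 2 among genes that reached a TPM of 10 in either library. List medians used genes that reached a TPM of 1, and a pseudocount of 1. Intervals are at 95% and cover counting error only (Clopper-Pearson for ratios and shares of reads, Poisson for levels). The exception is the interval of the chromosome 15 median, which came from the ranks of its genes taken as independent. Intervals of ratios were placed on the TPM scale. No p-value was computed. Besides the 8 members, genes to be named were, in each list, the 2 most abundant by TPM and the 2 that changed most among those with a TPM of 10, unless stated otherwise. The members and lists were chosen with earlier results of these data known. Alternatives covered the filter, fold, pseudocount and scaling. Scripts were tested on simulated data. Software was R 4.3.3 with edgeR 4.0.16, and Python 3.11.15 with scipy 1.17.1, matplotlib 3.10.9, pandas 2.3.3 and numpy 2.4.6.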

Additional observations from a re-analysis of the deposited data

How the results depend on the processing

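No paired analysis was possible because each group has a single library, and for the same reason no library could be left out. Counting error is small for these genes, but the difference between tumours was not measured. Lin28a and Hmga2 were called higher under all 12 alternatives. Trim71 was called as well with a TPM of at least 1 or no filter, and Hmga1 with FPKM, library totals, a fold above 1.5, the whole counting interval of read counts scaled by library totals beyond 2-fold, centring on all genes or the sum with Hmga1b. With the counting interval on the TPM scale, 1.84 to 1.97, Hmga1 was not called. Centring, this sum, the interval on the TPM scale and the list counts on FPKM were chosen after seeing the data. Mycl was called lower except at a fold above 3, which left 0 genes lower. By reads in place of TPM, which weights long transcripts more, the share of Lin28a was 55.3% and 83.8%, of Hmga2 23.6% and 35.1%, of Mycn 22.4% and 44.3%, and of Mycl 68.2% and 39.7%. On FPKM the count called lower went from 4 to 1 for let-7 processing, from 1 to 0 for let-7 targets, from 2 to 1 for the Myc network and from 1 to 0 for Myc turnover, and the count called higher went from 3 to 6 for Myc growth targets and from 1 to 3 for cycling cells. The median of the let-7 targets changed sign in 6 of 7 alternatives (-0.06 to 0.18), and the medians of the other 16 lists kept theirs. Of 48 alternative log2 ratios of single members, 31 moved beyond counting error and 0 changed sign. They ranged from 0.17 to 0.36 for Myc and from -1.41 to -1.17 for Mycl.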
